A study of Mus musculus with 3 samples.

Results

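The 9 genes described here encode the subunits of the hypoxia-inducible factors (HIF) and the enzymes that control them by oxygen. They were chosen by name, with earlier results of these data known but with no measured value in the rule, as the genes with the symbols Egln1, Egln2, Egln3, Epas1, Hif1a, Hif3a, Arnt, Vhl and Hif1an, and all 9 were listed in each deposited table, out of 15503 genes listed in any of them. RNA sequencing was done on left ventricle of C57BL6J mice in 3 libraries. One library came from Egln1/Hif2aTie2Cre mice, named for loss of both Egln1 and Hif2a (the protein of Epas1) where Cre recombinase is made from the Tie2 promoter, 1 from Egln1Tie2Cre mice, named for loss of Egln1 there, and 1 from Egln1 floxed mice, the control, which the series' design text calls wild type. Each library pools RNA of 3 mice. Tie2 (Tek) is expressed in endothelium and in haematopoietic cells, so the cardiomyocytes of both Cre genotypes should keep the targeted genes. The labels used here give no age or sex and do not say whether the control or Egln1Tie2Cre mice carried a floxed Hif2a allele.

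In well-oxygenated cells the prolyl hydroxylases encoded by the Egln genes mark the HIF alpha subunits, the von Hippel-Lindau protein binds the marked subunits, and they are degraded. When oxygen is low, or when the hydroxylases are lost, the alpha subunits persist, pair with the beta subunit Arnt and switch on genes of glycolysis, angiogenesis and red cell formation. Control of the alpha subunits is thus largely at the protein level, and their mRNA, which is what was measured here, does not show how much protein is present.

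Values are FPKM, fragments scaled by transcript length and library size, so levels can be compared between genes within a library. Comparisons between libraries also depend on the scaling chosen, as given below. Because each genotype has 1 library, differences cannot be set against a spread between replicates, no test was run, and the sequencing depth behind each value is unknown. Folds are plain ratios of FPKM. None of the 9 genes has a near-identical copy: the share of 31-base stretches of its transcripts found in transcripts of another gene was 4.5% for Hif1a and below 1% for the other 8. The FPKM scale was close to even across genes, with a median log2 ratio over all genes kept of -0.004 for Egln1/Hif2aTie2Cre over floxed, -0.03 for Egln1/Hif2aTie2Cre over Egln1Tie2Cre and 0.02 for Egln1Tie2Cre over floxed. Scaling the libraries to equal summed FPKM instead would move all log2 ratios down by 0.30 in the first of these pairs and by 0.37 in the second, and up by 0.07 in the third.

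Egln1 encodes PHD2, the main oxygen-sensing prolyl hydroxylase and the gene deleted in both Cre genotypes (GRCm38 chromosome 8, 124908587 to 124949324, minus strand, matched by its Ensembl identifier ENSMUSG00000031987 to GENCODE M21; the build behind the deposited tables is not given in the sources used here). It had 129 FPKM in the library labelled Egln1/Hif2aTie2Cre, 95.7 FPKM in Egln1Tie2Cre and 129.5 FPKM in the floxed library. The Egln1Tie2Cre library was the low one, 1.35-fold below floxed, and 36.2% of the 11978 genes kept in that pair (mean FPKM of at least 1) were at least as far apart. On the FPKM as deposited, the library labelled Egln1/Hif2aTie2Cre was within 1.004-fold of floxed. The loss of Egln1 named in its label was thus not visible in this value. Scaled to equal summed FPKM, its Egln1 log2 ratio became -0.31 over floxed and 0.06 over Egln1Tie2Cre, so this comparison depends on the scaling. Every direction drawn from this library rests on its label. FPKM over a whole gene in whole ventricle checks such a deletion only coarsely, because cells without Cre keep the transcript and exons left in a deleted allele can still be counted. In such tissue, fewer cells of a type and less RNA per cell cannot be told apart.

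Egln3 encodes PHD3, a prolyl hydroxylase whose own gene is a HIF target (chromosome 12, 54178981 to 54203860, minus strand). It had 65.3 FPKM in the library labelled Egln1/Hif2aTie2Cre, 19.9 FPKM in Egln1Tie2Cre and 25.2 FPKM in the floxed library. The library labelled for both deletions stood alone as the high one, 3.28-fold above Egln1Tie2Cre and 2.60-fold above floxed, while Egln1Tie2Cre was 1.27-fold below floxed. Among 11888 genes kept in the pair of Egln1/Hif2aTie2Cre over floxed it had the 69th highest ratio, and among 11999 genes kept in Egln1/Hif2aTie2Cre over Egln1Tie2Cre the 334th highest. In the authors' deposited tables, which compare 2 libraries and not 2 genotypes, its q-values were 0.1564 over Egln1Tie2Cre and 0.3849 over floxed.

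**Figure D1:**
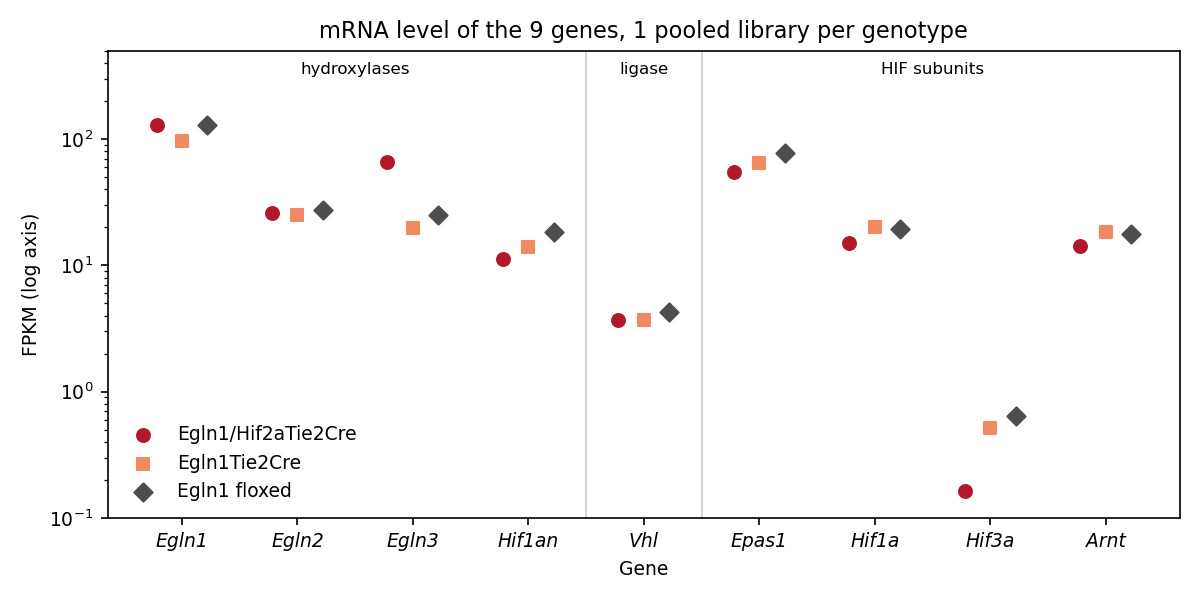
FPKM of the 9 genes (log axis) in the libraries labelled Egln1/Hif2aTie2Cre (circles), Egln1Tie2Cre (squares) and Egln1 floxed (diamonds), 1 pooled library each and so without error bars. Egln3 stands apart in the Egln1/Hif2aTie2Cre library at 65.3 FPKM, against 19.9 FPKM in Egln1Tie2Cre and 25.2 FPKM in the floxed library, and Hif3a lies below 1 FPKM in all 3.

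The promoters of these HIF-responsive hydroxylase genes are shown because HIF binds DNA at a short core, ACGTG or GCGTG, read on either strand. The windows run from 250 bases before to 50 bases after the RefSeq transcript start on GRCm38.p6, written 5′ to 3′ on the gene's own strand, at chr12:54203825-54204124 (minus strand) for Egln3 and chr8:124949205-124949504 (minus strand) for Egln1, with each core in capitals.
Egln3: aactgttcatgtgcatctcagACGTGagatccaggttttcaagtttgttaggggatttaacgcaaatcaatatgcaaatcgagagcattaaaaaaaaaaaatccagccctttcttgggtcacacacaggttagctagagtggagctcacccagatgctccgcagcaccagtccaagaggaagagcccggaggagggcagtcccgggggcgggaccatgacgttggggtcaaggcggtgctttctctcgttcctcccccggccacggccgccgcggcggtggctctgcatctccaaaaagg
Egln1: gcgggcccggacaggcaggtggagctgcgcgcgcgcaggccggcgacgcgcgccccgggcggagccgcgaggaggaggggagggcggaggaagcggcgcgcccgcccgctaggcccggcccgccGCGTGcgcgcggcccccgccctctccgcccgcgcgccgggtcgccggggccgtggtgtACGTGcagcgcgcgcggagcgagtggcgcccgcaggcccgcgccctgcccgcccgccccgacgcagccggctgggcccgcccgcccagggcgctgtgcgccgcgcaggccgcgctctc
Egln3, the gene that was high in 1 library, held 1 core, and Egln1 held 2, on the strand shown. The promoter table matched 8 of the genes, of which 6 held a core, while Vhl and Hif1an held none, and Epas1 was not matched. Counted by window, 7 of the 9 windows of the matched genes held a core. A core occurred in 43.8% of all 32851 promoter windows, since 5 bases recur often, and a match is a description of the letters only.

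Egln2, which encodes PHD1, was the most even of the hydroxylases, at 25.9 FPKM in Egln1/Hif2aTie2Cre, 24.97 FPKM in Egln1Tie2Cre and 27.5 FPKM in the floxed library. The libraries lay within 1.10-fold of each other, with the Egln1Tie2Cre value lowest. Its exons overlap those of Cyp2t4 on the opposite strand by 11 bases. Hif1an encodes factor inhibiting HIF, the asparaginyl hydroxylase that blocks the binding of coactivators to the alpha subunits (chromosome 19, 44562850 to 44576274, plus strand). Its level was 11.2 FPKM in Egln1/Hif2aTie2Cre, 14.1 FPKM in Egln1Tie2Cre and 18.2 FPKM in the floxed library. Both Cre libraries were thus below the control, by 1.62-fold in Egln1/Hif2aTie2Cre and by 1.30-fold in Egln1Tie2Cre. In Egln1/Hif2aTie2Cre over floxed, 7.88% of genes were at least as far apart as Hif1an, and 3.70% had a lower ratio.

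Vhl, which encodes the substrate-binding subunit of the ubiquitin ligase that recognises hydroxylated HIF, was low at 3.65 FPKM in Egln1/Hif2aTie2Cre, 3.68 FPKM in Egln1Tie2Cre and 4.27 FPKM in the floxed library. The Cre libraries were within 1.01-fold of each other and below the control, by 1.17-fold in Egln1/Hif2aTie2Cre and 1.16-fold in Egln1Tie2Cre.

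Among the alpha subunits, Epas1 encodes HIF-2 alpha, the form first described in endothelium and the other gene targeted in the double genotype (chromosome 17, 86753700 to 86833410, plus strand). It had 54.5 FPKM in the library labelled Egln1/Hif2aTie2Cre, 65.02 FPKM in Egln1Tie2Cre and 77.4 FPKM in the floxed library. The level was lowest in the library labelled for its deletion, 1.42-fold below floxed and 1.19-fold below Egln1Tie2Cre, but Egln1Tie2Cre was itself 1.19-fold below floxed. In Egln1/Hif2aTie2Cre over floxed, 17.6% of genes were at least as far apart as Epas1, and scaled to equal sums its log2 ratio of -0.51 became -0.81, past 1.5-fold.

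Hif1a encodes HIF-1 alpha, the widely expressed alpha subunit. Its level was 15.01 FPKM in Egln1/Hif2aTie2Cre, 20.1 FPKM in Egln1Tie2Cre and 19.3 FPKM in the floxed library, so the library labelled for both deletions was the low one (1.34-fold below Egln1Tie2Cre and 1.29-fold below floxed). The exons of Hif1a overlap an antisense gene, Gm15283, and a coding gene on the same strand, Gm49321, by at most 330 bases, and since the strand setting of the authors' counting is not given, reads of these genes cannot be fully told apart. Arnt, the beta subunit shared by the alpha subunits, followed the same order at 14.2 FPKM in Egln1/Hif2aTie2Cre, 18.4 FPKM in Egln1Tie2Cre and 17.6 FPKM in the floxed library. It was 1.29-fold below Egln1Tie2Cre and 1.24-fold below floxed in the library labelled for both deletions. Arnt stayed between 0.910 and 0.945 times the level of Hif1a within each library.

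Hif3a encodes HIF-3 alpha, some forms of which restrain the other alpha subunits. It was at 0.163 FPKM in Egln1/Hif2aTie2Cre, 0.519 FPKM in Egln1Tie2Cre and 0.636 FPKM in the floxed library. Its plain folds were large, 3.18-fold below Egln1Tie2Cre and 3.90-fold below floxed, but they rest on levels under 1 FPKM. With 1 added to each FPKM the log2 ratios of -1.67 and -1.96 became -0.38 and -0.49, and the gene did not pass the minimum mean FPKM of 1 in any pair.

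**Figure D2:**
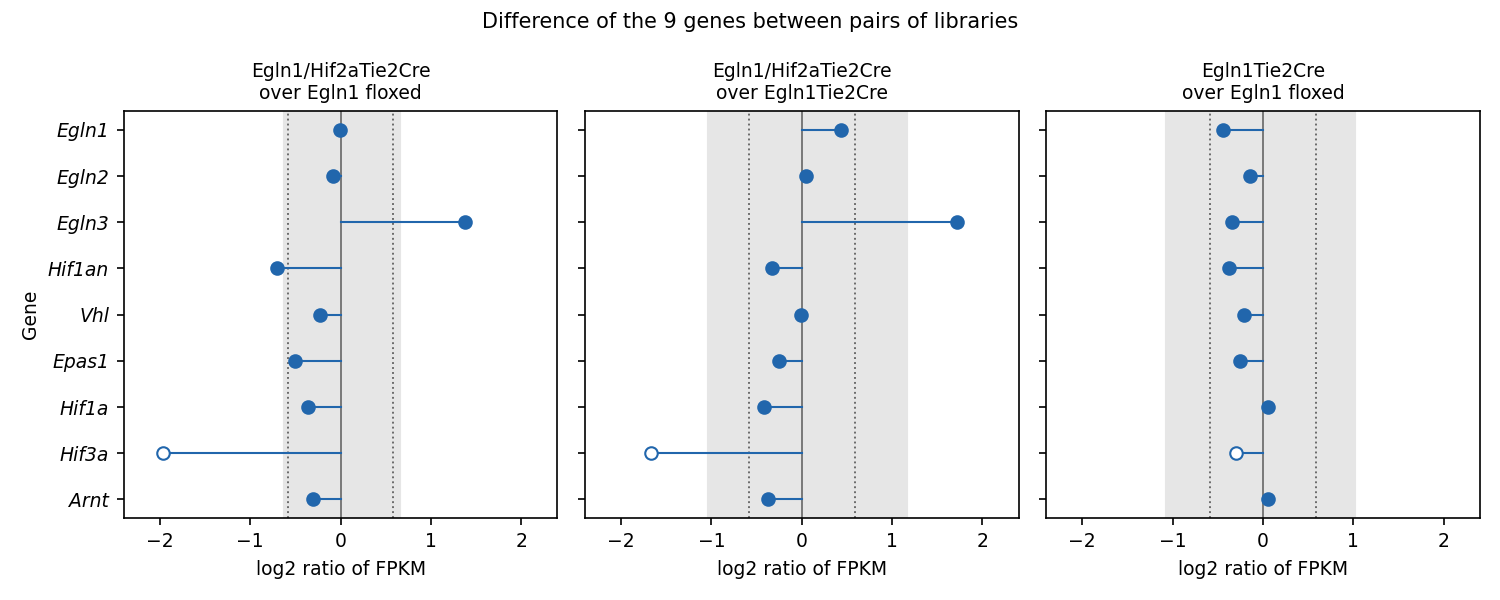
Log2 ratio of FPKM of each gene for Egln1/Hif2aTie2Cre over floxed, Egln1/Hif2aTie2Cre over Egln1Tie2Cre and Egln1Tie2Cre over floxed, with dotted lines at 1.5-fold, a grey band from the 5th to the 95th percentile of all genes kept, and an open circle for Hif3a, which lies under the minimum FPKM. The band spans -0.63 to 0.66, -1.03 to 1.16 and -1.08 to 1.02 in these pairs, and Egln3 (1.38 and 1.72) lies above it in both pairs that hold the Egln1/Hif2aTie2Cre library.

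Counted together, 8 of the 9 genes passed the minimum mean FPKM in each pair. In Egln1/Hif2aTie2Cre over floxed, 1 of 8 was at least 1.5-fold higher (Egln3) and 1 at least 1.5-fold lower (Hif1an), where 6.73% of all genes kept were higher and 5.74% lower by that margin (12.5% either way). In Egln1/Hif2aTie2Cre over Egln1Tie2Cre, 1 was higher (Egln3) and 0 were lower, against 13.1% and 12.3% of all genes (25.5% either way). In Egln1Tie2Cre over floxed, 0 of 8 were 1.5-fold apart, against 11.7% higher and 12.4% lower over all genes (24.1% either way). At 2-fold, Egln3 was past the threshold in both pairs that hold the Egln1/Hif2aTie2Cre library, where 1.41% of genes over floxed and 6.33% over Egln1Tie2Cre were higher and 1.46% and 5.25% were lower, and 0 of 8 were past it in Egln1Tie2Cre over floxed (5.16% higher and 5.63% lower over all genes). Scaled to equal sums, 5 members were past 1.5-fold in each pair that holds the Egln1/Hif2aTie2Cre library, with Egln3 higher and Epas1, Hif1a, Arnt and Hif1an lower. That scaling also moved the share of all genes past 1.5-fold, to 2.03% higher and 20.6% lower in Egln1/Hif2aTie2Cre over floxed and to 6.74% higher and 34% lower in Egln1/Hif2aTie2Cre over Egln1Tie2Cre. In Egln1/Hif2aTie2Cre 7 of 8 genes stood below the control, with Egln1 lower by a margin that some scalings turn round and equal sums widen. In Egln1Tie2Cre 6 of 8 stood below it. About 1 of every 2 genes lay on that side overall (50.6% and 48.1%). The median log2 ratio of the 8 genes was -0.27 in Egln1/Hif2aTie2Cre over floxed, -0.13 in Egln1/Hif2aTie2Cre over Egln1Tie2Cre and -0.23 in Egln1Tie2Cre over floxed. These pairs share libraries and are not independent of one another. Of the 27 q-values that the authors' deposited tables give for these genes, 0 were at or below 0.05 and 25 were at the highest value listed for them, 0.9996.

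The order of the levels was much alike at its ends. Egln1 was the highest of the 9 in every library, at rank 557 of 15370 genes in Egln1/Hif2aTie2Cre, 711 of 15232 in Egln1Tie2Cre and 520 of 15301 in the floxed library, and Vhl and Hif3a were the lowest. Epas1 was next after Egln1 in Egln1Tie2Cre and floxed, while in Egln1/Hif2aTie2Cre Egln3 exceeded it by 1.20-fold. Egln3 was at position 5 of the 9 in Egln1Tie2Cre and 4 in floxed. Hif1a and Arnt lay within 1.10-fold of each other in all 3, and with no replicate the order of such close neighbours is not resolved.

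**Figure D3:**
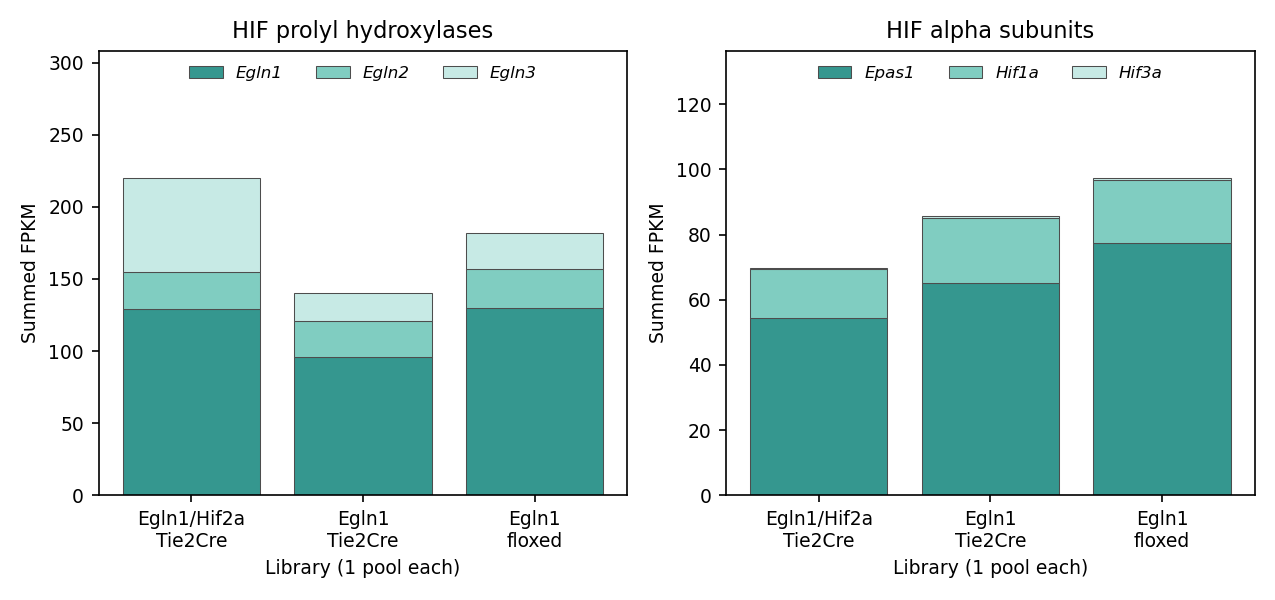
Summed FPKM of the prolyl hydroxylase genes (left) and of the HIF alpha subunit genes (right) in each library, 1 pool each, stacked by gene. The hydroxylase sum is highest in Egln1/Hif2aTie2Cre (220.2 FPKM) and lowest in Egln1Tie2Cre (140.5), whereas the alpha subunit sum is 69.7 FPKM in Egln1/Hif2aTie2Cre, 85.6 FPKM in Egln1Tie2Cre and 97.4 FPKM in floxed.

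The makeup of the prolyl hydroxylase mRNA differed more than that of the alpha subunits. Egln3 made up 29.7% of the summed FPKM of Egln1, Egln2 and Egln3 in Egln1/Hif2aTie2Cre, 14.2% in Egln1Tie2Cre and 13.8% in the floxed library. Egln1 made up 58.6% in Egln1/Hif2aTie2Cre, 68.1% in Egln1Tie2Cre and 71.1% in floxed, although its own level as deposited matched the control in Egln1/Hif2aTie2Cre. Among the alpha subunits, the share of Epas1 was 78.2% in Egln1/Hif2aTie2Cre, 75.9% in Egln1Tie2Cre and 79.5% in floxed, so that the library labelled as lacking Hif2a kept nearly the same makeup. Epas1 exceeded Hif1a by 3.63-fold in Egln1/Hif2aTie2Cre, 3.24-fold in Egln1Tie2Cre and 4.004-fold in floxed.

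Since Tie2Cre acts in endothelium, the genes were also set against 12 endothelial markers. Their median log2 ratio was 0.13 in Egln1/Hif2aTie2Cre over floxed, -0.01 in Egln1/Hif2aTie2Cre over Egln1Tie2Cre and 0.26 in Egln1Tie2Cre over floxed. Tek, the receptor gene whose promoter drives the Cre, was at 17.5 FPKM in Egln1/Hif2aTie2Cre, 23.6 FPKM in Egln1Tie2Cre and 16.5 FPKM in the floxed library. Relative to that median, Egln1 was 1.62-fold below floxed in Egln1Tie2Cre and 1.10-fold below it in Egln1/Hif2aTie2Cre. Epas1 was lower by 0.64 on the same log2 scale in Egln1/Hif2aTie2Cre over floxed and by 0.51 in Egln1Tie2Cre over floxed. These drops were not particular to the targeted genes. Hif1an, which was not targeted, stood at -0.83 and -0.63 in the same pairs. Every member lay below the marker median in Egln1Tie2Cre over floxed, and every member but Egln3 did in Egln1/Hif2aTie2Cre over floxed. Most other genes did so too, since the median over all genes kept was 0.02 and -0.004 in these pairs. Hif3a is included here although it lies under the minimum mean FPKM. The markers varied among themselves, ranging from -0.15 to 1.07 in Egln1/Hif2aTie2Cre over floxed and from -0.29 to 0.84 in Egln1Tie2Cre over floxed. Their summed level was 600.1 FPKM in Egln1/Hif2aTie2Cre, 603 FPKM in Egln1Tie2Cre and 494 FPKM in floxed. Among markers of other cells, the summed level of 5 erythroid genes was 400.4 FPKM in Egln1/Hif2aTie2Cre, 509.7 FPKM in Egln1Tie2Cre and 549.6 FPKM in floxed, the same order of libraries as Epas1 and Hif1an. Its members differed in Egln1Tie2Cre over floxed, where 2 lay above and 3 below 0 on the log2 scale, and Hbb-bs, the most abundant, was highest in Egln1Tie2Cre (195 FPKM in Egln1/Hif2aTie2Cre, 344 FPKM in Egln1Tie2Cre and 249 FPKM in floxed). That of 6 macrophage genes was 139.5 FPKM in Egln1/Hif2aTie2Cre, 81.1 FPKM in Egln1Tie2Cre and 106 FPKM in floxed, the same order as Egln3. C1qa and C1qb held most of that sum, at 60.3 and 50.2 FPKM in Egln1/Hif2aTie2Cre. Of the 6 genes, 4 lay above and 2 below 0 in Egln1/Hif2aTie2Cre over floxed. In Egln1Tie2Cre over floxed, 1 lay above and 5 below. The part of these cell types in the levels of the members was not tested.

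In a list of direct HIF targets that leaves out the members, 41 genes passed the minimum mean FPKM. In Egln1/Hif2aTie2Cre over floxed, 7 of these were higher by at least 1.5-fold and 0 were lower by as much, with a median log2 ratio of 0.31, where 6.73% of all genes were higher and 5.74% lower. Scaling to equal summed FPKM would move all log2 ratios of this pair down by 0.30, about the size of that median. With that scaling 7 of these targets were past 1.5-fold either way, as were 22.7% of all genes. In Egln1/Hif2aTie2Cre over Egln1Tie2Cre, 8 were higher and 6 lower, with a median of 0.01, against 13.1% higher and 12.3% lower over all genes. In Egln1Tie2Cre over floxed, 11 were higher and 3 lower, with a median of 0.21, against 11.7% higher and 12.4% lower over all genes. Slc16a3, which exports lactate, had 18.7 FPKM in Egln1/Hif2aTie2Cre, 7.43 FPKM in Egln1Tie2Cre and 0.875 FPKM in floxed. Vegfa, the main endothelial growth factor, had 311 FPKM in Egln1/Hif2aTie2Cre, 220.5 FPKM in Egln1Tie2Cre and 142 FPKM in floxed. Both were higher in each Cre library than in floxed, whereas Egln3 was above floxed in Egln1/Hif2aTie2Cre only. Slc16a3 passed the minimum mean FPKM over floxed only through its levels in the Cre libraries, and it is among the higher genes counted above. Ankrd37, another HIF target, was highest in Egln1Tie2Cre (9.39 FPKM in Egln1/Hif2aTie2Cre, 19.8 FPKM in Egln1Tie2Cre and 7.34 FPKM in floxed). The low values in Egln1Tie2Cre included Bnip3l, a mitophagy receptor (56.7 FPKM in Egln1/Hif2aTie2Cre, 12.5 FPKM in Egln1Tie2Cre and 44.2 FPKM in floxed). They also included Higd1a, a mitochondrial protein (85.3 FPKM in Egln1/Hif2aTie2Cre, 19.6 FPKM in Egln1Tie2Cre and 60.1 FPKM in floxed). Of the stretches of 31 bases in these genes, 20.8% for Ankrd37, 21.1% for Bnip3l and 27.0% for Higd1a also occur in other genes, which makes their levels uncertain. Bnip3, of the same family as Bnip3l, was at 159.6 FPKM in Egln1/Hif2aTie2Cre, 83.4 FPKM in Egln1Tie2Cre and 89.5 FPKM in floxed, with 57.7% of its stretches shared.

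The other 2-oxoglutarate oxygenases belong to the enzyme superfamily of the HIF hydroxylases. Of 47 kept in Egln1/Hif2aTie2Cre over floxed, 3 were higher and 2 lower by at least 1.5-fold (10.6% either way, against 12.5% of all genes), with a median log2 ratio of -0.06. Of 46 kept in Egln1/Hif2aTie2Cre over Egln1Tie2Cre, 1 was higher and 5 were lower (13.0% against 25.5% of all genes), with a median of -0.14. Scaled to equal sums, 17 were past 1.5-fold in that pair, as were 40.7% of all genes. In Egln1Tie2Cre over floxed, 3 of 47 were higher and 1 lower (8.51% against 24.1% of all genes), with a median of 0.10. P4ha1, a collagen prolyl hydroxylase and HIF target, was at 36.3 FPKM in Egln1/Hif2aTie2Cre, 23.2 FPKM in Egln1Tie2Cre and 16.3 FPKM in floxed. Jmjd6, a lysyl hydroxylase of nuclear proteins, was highest in the same library (23.8 FPKM in Egln1/Hif2aTie2Cre, 17.8 FPKM in Egln1Tie2Cre and 14.6 FPKM in floxed). Ogfod1, a ribosomal prolyl hydroxylase, was lowest there (6.02 FPKM in Egln1/Hif2aTie2Cre, 8.85 FPKM in Egln1Tie2Cre and 9.33 FPKM in floxed). Plod3, a collagen lysyl hydroxylase, was instead highest in Egln1Tie2Cre (15.9 FPKM in Egln1/Hif2aTie2Cre, 28.9 FPKM in Egln1Tie2Cre and 16.7 FPKM in floxed). Leprel1, a collagen prolyl 3-hydroxylase, was also highest there (1.82 FPKM in Egln1/Hif2aTie2Cre, 5.31 FPKM in Egln1Tie2Cre and 1.28 FPKM in floxed). So was Mina, a ribosomal histidyl hydroxylase (7.61 FPKM in Egln1/Hif2aTie2Cre, 14.3 FPKM in Egln1Tie2Cre and 8.07 FPKM in floxed). Over 20% of the stretches of Leprel1 and Mina are shared with other genes. Tet3, a methylcytosine dioxygenase, was lowest in Egln1Tie2Cre (3.00 FPKM in Egln1/Hif2aTie2Cre, 2.21 FPKM in Egln1Tie2Cre and 3.59 FPKM in floxed).

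Kdm5d, a histone demethylase of this list encoded on the Y chromosome, was at 0.610 FPKM in Egln1/Hif2aTie2Cre, 1.31 FPKM in Egln1Tie2Cre and 1.86 FPKM in floxed. Other sex-linked genes were read after this value was seen. Ddx3y was at 5.59 FPKM in Egln1/Hif2aTie2Cre, 8.73 FPKM in Egln1Tie2Cre and 11.4 FPKM in floxed. Uty, also on the Y chromosome, was at 1.31 FPKM in Egln1/Hif2aTie2Cre, 2.33 FPKM in Egln1Tie2Cre and 3.60 FPKM in floxed. Eif2s3y did not follow that order (17.3 FPKM in Egln1/Hif2aTie2Cre, 27.02 FPKM in Egln1Tie2Cre and 19.2 FPKM in floxed). Xist, made from the inactive X chromosome, was at 30.2 FPKM in Egln1/Hif2aTie2Cre, 18.9 FPKM in Egln1Tie2Cre and 16.5 FPKM in floxed. Xist and the Y-linked genes were thus both present in every library, so each pool held transcripts of both sexes. The labels give no sex for the mice, and the part of these differences in the levels of the 9 genes was not tested.

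Among partners of the von Hippel-Lindau ligase and other genes of HIF stability, 2 of 25 were higher and 1 lower in Egln1/Hif2aTie2Cre over floxed, a share of 12% against 12.5% of all genes, with a median of 0.10. Of the same 25 genes, 6 were higher and 5 lower in Egln1/Hif2aTie2Cre over Egln1Tie2Cre (44% against 25.5% of all genes), with a median of 0.04. In Egln1Tie2Cre over floxed, 4 were higher and 4 lower (32% against 24.1% of all genes), with a median of 0.16. Hsp90aa1, the inducible chaperone that stabilises HIF-1 alpha, was at 137.9 FPKM in Egln1/Hif2aTie2Cre, 26.1 FPKM in Egln1Tie2Cre and 53.2 FPKM in floxed, although 48.0% of its stretches occur in other genes. The pattern of high in the library labelled for both deletions and low in Egln1Tie2Cre was thus like that of Egln3. Rbx1, the RING subunit of the ligase, had 44.99 FPKM in Egln1/Hif2aTie2Cre, 18.3 FPKM in Egln1Tie2Cre and 33.03 FPKM in floxed. Rnf7, its relative, had 85.2 FPKM in Egln1/Hif2aTie2Cre, 38.3 FPKM in Egln1Tie2Cre and 58.8 FPKM in floxed, with 35.8% of its stretches shared. Both were high and low in the same libraries as Egln3. Tceb1, which encodes elongin C, the adaptor that binds Vhl, had 75.96 FPKM in Egln1/Hif2aTie2Cre, 71.9 FPKM in Egln1Tie2Cre and 48.3 FPKM in floxed. Uchl1, a deubiquitinase, had the opposite order to Egln3 (2.93 FPKM in Egln1/Hif2aTie2Cre, 11.8 FPKM in Egln1Tie2Cre and 4.98 FPKM in floxed). Nqo1, a quinone reductase, was also highest in Egln1Tie2Cre (31.4 FPKM in Egln1/Hif2aTie2Cre, 67.3 FPKM in Egln1Tie2Cre and 34.5 FPKM in floxed).

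Among HIF coactivators and other transcription factors of the bHLH-PAS family, 2 of 14 were higher and 0 lower in Egln1/Hif2aTie2Cre over floxed (14.3% either way, against 12.5% of all genes), with a median of -0.13. Of 14 kept in Egln1/Hif2aTie2Cre over Egln1Tie2Cre, 4 were higher and 0 lower (28.6% against 25.5% of all genes), with a median of 0.01. In Egln1Tie2Cre over floxed, 0 of 12 were higher and 1 lower (8.33% against 24.1% of all genes), with a median of -0.13. The genes higher than floxed in Egln1/Hif2aTie2Cre were the clock factors Arntl (1.63 FPKM in Egln1/Hif2aTie2Cre, 0.799 FPKM in Egln1Tie2Cre and 0.433 FPKM in floxed) and Arntl2 (2.70 FPKM in Egln1/Hif2aTie2Cre, 0.777 FPKM in Egln1Tie2Cre and 1.08 FPKM in floxed). Both lie near the minimum mean FPKM, which neither passed in Egln1Tie2Cre over floxed. Arntl passed it over floxed only through its level in Egln1/Hif2aTie2Cre. At a mean FPKM of at least 5, the count was 0 in Egln1/Hif2aTie2Cre over floxed and 2 in Egln1/Hif2aTie2Cre over Egln1Tie2Cre. Ep300, a histone acetyltransferase recruited by HIF, was at 5.23 FPKM in Egln1/Hif2aTie2Cre, 5.94 FPKM in Egln1Tie2Cre and 7.30 FPKM in floxed, the same order of libraries as Epas1. Ahr, the dioxin receptor that also pairs with Arnt, was at 1.76 FPKM in Egln1/Hif2aTie2Cre, 2.37 FPKM in Egln1Tie2Cre and 2.26 FPKM in floxed. Cited2, which competes with HIF for Ep300, was at 15.6 FPKM in Egln1/Hif2aTie2Cre, 14.9 FPKM in Egln1Tie2Cre and 19.8 FPKM in floxed. Cited4, of the same family, was at 13.01 FPKM in Egln1/Hif2aTie2Cre, 8.62 FPKM in Egln1Tie2Cre and 12.5 FPKM in floxed. These did not share an order of libraries, since Cited2 was highest in floxed and Cited4 in Egln1/Hif2aTie2Cre. Ncoa1, a steroid receptor coactivator, was at 4.31 FPKM in Egln1/Hif2aTie2Cre, 4.31 FPKM in Egln1Tie2Cre and 5.49 FPKM in floxed. Pkm, pyruvate kinase, a form of which binds HIF-1 alpha, was the lower gene in Egln1Tie2Cre (559 FPKM in Egln1/Hif2aTie2Cre, 319 FPKM in Egln1Tie2Cre and 561 FPKM in floxed), with 42.1% of its stretches shared.

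**Figure D4:**
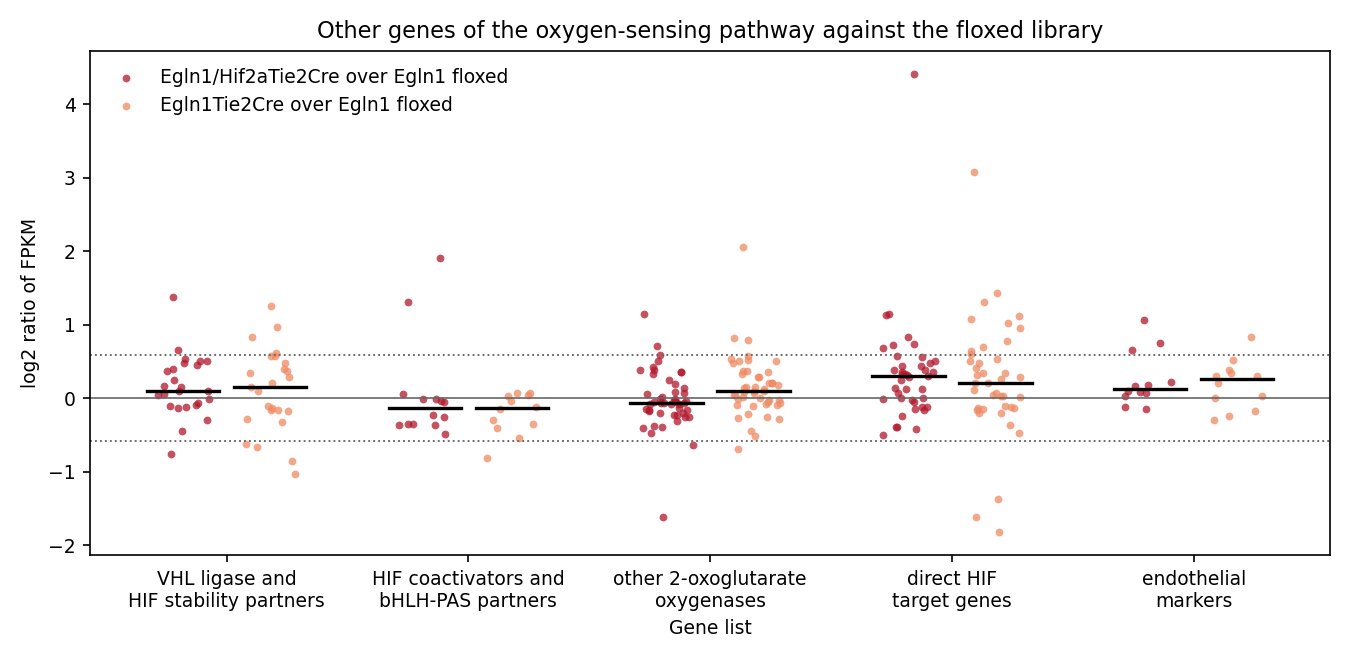
Log2 ratio of FPKM over the floxed library for each gene kept in 4 lists of the pathway and in the endothelial markers, for Egln1/Hif2aTie2Cre (dark red points) and Egln1Tie2Cre (orange points), with a bar at each median and dotted lines at 1.5-fold. The direct HIF targets have the highest median in Egln1/Hif2aTie2Cre (0.31), and Slc16a3 is the highest point in both (4.42 and 3.08). Equal summed FPKM would move every Egln1/Hif2aTie2Cre point down by 0.30, about the size of the direct targets' median. The size of both Slc16a3 ratios rests on a low floxed level of 0.875 FPKM.

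The genes whose pattern was nearest to that of the members at least 1.5-fold apart in any pair were found by Euclidean distance between centred log2 FPKM over the 3 libraries, among named genes of a mean FPKM of at least 5 (7410 for Egln3 and Hif1an, 7411 for Hif3a). Nearest to Egln3 were Telo2 (distance 0.22), Ift122 (0.26), Ybx2 (0.29), Zfp932 (0.29) and Meig1 (0.37). Telo2 was at 8.86 FPKM in Egln1/Hif2aTie2Cre, 3.28 FPKM in Egln1Tie2Cre and 4.05 FPKM in floxed. Hif1an had closer neighbours, Fam214a (0.0091), Synj2 (0.026), Smurf1 (0.027), Cand2 (0.030) and Atf7ip (0.030). Nearest to Hif3a were Wee1 (0.38), Tmem104 (0.44), Pdpr (0.53), Palm2 (0.58) and Lig3 (0.60). The members were not held to a minimum FPKM in this step, and the pattern of Hif3a rests on levels under 1 FPKM. Over 20% of the stretches of Zfp932, Palm2 and Lig3 occur in other genes. With 3 points these likenesses describe the libraries only.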

How the data were processed

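RNA of left ventricle was pooled from 3 mice per genotype, giving 1 library each. The authors handled reads with TopHat2 and Cuffdiff, per the submitters' processing notes; their versions, the genome build and the annotation were not given in the sources used here. The authors deposited 3 tables, each with FPKM for a pair of libraries and a q-value, per the file headers. Columns were assigned to libraries by the sample titles in the tables' names, and the values of each library recur between its tables (for floxed, 14368 of 14369 shared genes identical, tolerance 0).

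Ratios were taken from each pair's own table. Counts used a minimum mean FPKM of 1 over the pair and a threshold of 1.5-fold. Since each genotype has 1 library, no test was run. Shared 31-base stretches were found in GENCODE M21 transcripts, from a sample of 1 in 16, on both strands, and 20% or more counted as a copy. Promoters are RefSeq's. The ratio and scaling steps were tested on simulated data. Python 3.11.15, pandas 2.3.3 and numpy 2.4.6 were used.

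The gene lists, like the members, were chosen with earlier results of these data known. The naming rule takes the 9 genes, the 4 farthest-apart genes of each of 4 pathway lists in each Cre library over floxed, the 2 most abundant of each of 6 cell type lists, the 5 nearest genes in pattern, and Tek. It also names Slc16a3 and Vegfa as direct HIF targets. Of the pathway lists, 7 of 25, 1 of 16, 5 of 50 and 6 of 42 genes have a copy, in the order of ligase and stability partners, coactivators, oxygenases and direct targets. Text notes in unnamed columns of 1 table were not used.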

Additional observations from a re-analysis of the deposited data

How the results depend on the processing

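No paired analysis was possible because each genotype has 1 library. Across 162 alternative log2 ratios of the 9 genes, 153 stayed on the same side of 1.5-fold, 9 crossed it, and 4 changed sign, for Egln1 (Egln1/Hif2aTie2Cre over floxed), Egln2 and Vhl (both Egln1/Hif2aTie2Cre over Egln1Tie2Cre), with none of them past 1.5-fold. Scaled to equal summed FPKM, the ratio of Egln1/Hif2aTie2Cre over Egln1Tie2Cre became -0.63 for Epas1, -0.79 for Hif1a, -0.74 for Arnt and -0.70 for Hif1an, and that over floxed became -0.81 for Epas1, -0.67 for Hif1a and -0.61 for Arnt. The count of members past 1.5-fold became 5 in both pairs, while the share of all genes past it became 22.7% over floxed and 40.7% over Egln1Tie2Cre. With a pseudocount of 1, Hif3a became -0.38 over Egln1Tie2Cre and -0.49 over floxed. With no filter, 2 members were past the threshold in Egln1/Hif2aTie2Cre over Egln1Tie2Cre, and at 2-fold 1 was in Egln1/Hif2aTie2Cre over floxed. All 54 levels moved by less than 1.5-fold. Relative to endothelial markers, in Egln1Tie2Cre over floxed Egln3 was -0.52 with their geometric mean and -0.55 without Tek, and Hif1an -0.56 with the geometric mean. Hif1a over floxed in Egln1/Hif2aTie2Cre was -0.62 with the geometric mean.

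Of 72 alternative counts over the pathway lists 23 moved by over 1.5 times. Pairs are given in the order Egln1/Hif2aTie2Cre over floxed, Egln1/Hif2aTie2Cre over Egln1Tie2Cre and Egln1Tie2Cre over floxed. At 2-fold, which is stricter by construction, the counts were 3, 6 and 9 for direct targets, 2, 1 and 1 for the oxygenases, 1, 6 and 2 for ligase and stability partners, and, in the last pairs, 2 and 0 for coactivators. Equal sums gave 8, 17 and 7 for the oxygenases and 7 for coactivators in the first pair. Among genes without a copy, chosen after seeing the data, 3 and 2 oxygenases were past 1.5-fold in the last pairs, and 5 ligase partners and 0 coactivators in Egln1Tie2Cre over floxed. At a mean FPKM of at least 5, coactivators gave 0 and 2 in the first pairs and oxygenases 2 in the last. With no filter coactivators gave 2 in the last. The causes were not tested. Without counts the precision of Hif3a and Vhl, the lowest members, is unknown.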

Other observations

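Markers of the cell types in the ventricle were read beside the 9 genes. Cardiomyocyte markers dominated every library, with Myl2 at 15211 FPKM in Egln1/Hif2aTie2Cre, 19883 FPKM in Egln1Tie2Cre and 10992 FPKM in floxed, and Tnnt2 at 8673 FPKM in Egln1/Hif2aTie2Cre, 8947 FPKM in Egln1Tie2Cre and 7761 FPKM in floxed. Their median log2 ratio was -0.09 in Egln1/Hif2aTie2Cre over floxed (10 genes) and -0.01 in Egln1Tie2Cre over floxed (9 genes). Among endothelial markers, Egfl7, a secreted vascular factor, was at 168.7 FPKM in Egln1/Hif2aTie2Cre, 132 FPKM in Egln1Tie2Cre and 107 FPKM in floxed, while Eng, a co-receptor for transforming growth factor beta, peaked in Egln1Tie2Cre (60.3 FPKM in Egln1/Hif2aTie2Cre, 116.8 FPKM in Egln1Tie2Cre and 65.5 FPKM in floxed).

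Fibroblast markers had medians of 0.05 in Egln1/Hif2aTie2Cre over floxed and -0.30 in Egln1Tie2Cre over floxed (8 genes). Dcn, a matrix proteoglycan, was at 263.5 FPKM in Egln1/Hif2aTie2Cre, 237.8 FPKM in Egln1Tie2Cre and 196.8 FPKM in floxed. Col3a1, a fibrillar collagen, was at 65.5 FPKM in Egln1/Hif2aTie2Cre, 47.1 FPKM in Egln1Tie2Cre and 69.1 FPKM in floxed. Pericyte markers had medians of -0.39 in Egln1/Hif2aTie2Cre over floxed and -0.35 in Egln1Tie2Cre over floxed (6 genes). Rgs5 was at 160.1 FPKM in Egln1/Hif2aTie2Cre, 146.6 FPKM in Egln1Tie2Cre and 136.3 FPKM in floxed. Abcc9, a potassium channel subunit, was at 44.2 FPKM in Egln1/Hif2aTie2Cre, 52.5 FPKM in Egln1Tie2Cre and 67.4 FPKM in floxed. Macrophage markers had medians of 0.17 in Egln1/Hif2aTie2Cre over floxed and -0.29 in Egln1Tie2Cre over floxed (6 genes). The complement gene C1qa was at 60.3 FPKM in Egln1/Hif2aTie2Cre, 28.5 FPKM in Egln1Tie2Cre and 42.1 FPKM in floxed, and C1qb at 50.2 FPKM in Egln1/Hif2aTie2Cre, 27.03 FPKM in Egln1Tie2Cre and 35.3 FPKM in floxed. Erythroid markers had medians of -0.47 in Egln1/Hif2aTie2Cre over floxed and -0.12 in Egln1Tie2Cre over floxed (5 genes). The globin Hbb-bs was at 195 FPKM in Egln1/Hif2aTie2Cre, 344 FPKM in Egln1Tie2Cre and 249 FPKM in floxed. Hba-a1 was at 84.9 FPKM in Egln1/Hif2aTie2Cre, 125 FPKM in Egln1Tie2Cre and 136 FPKM in floxed, and over 20% of the stretches of both globin genes are shared with other genes. Their part in the levels of Epas1, Hif1an and Egln3 was not tested.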
